A study of Drosophila melanogaster with 135 samples.

Results

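The comparison described here set dissected muscle of 30d-old male Drosophila that were heterozygous for mutations in both Pcl and Su(z)12 against muscle of age-matched wild-type (WT) males. The mutants, Pcl c421/+; Su(z)12 c253/+, carry 1 copy of a CRISPR/Cas9 deletion in each gene, and the WT flies are of the line 5905. Each genotype had 3 libraries of polyA-selected mRNA, and each mutation is represented by 1 allele, backcrossed to the WT line. All 6 libraries came from flies aged 30 days, and the same 3 WT libraries also served the study as the old group of its WT aging series. The deposited table holds 1 mean of normalized counts per genotype and gene. Of 17023 genes, 9349 had a mean of both genotypes of at least 10, and all 9349 are the subject of this report.

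Pcl and Su(z)12 belong to Polycomb repressive complex 2 (PRC2), the enzyme that trimethylates histone H3 at lysine 27 (H3K27me3), a mark of silenced chromatin. E(z) is its catalytic subunit, Su(z)12, esc and Caf1 are core partners, and Pcl is an accessory subunit that directs the complex to its targets. The complex is best known for keeping developmental regulators such as the Hox genes silent where they are not used. The study measured muscle transcripts to look for genes whose change could go with the longer life of its PRC2 mutants, and then followed glycolysis.

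Because a mean of normalized counts is a sum of 3 whole read numbers divided by known scaling factors, the reads of single libraries could be worked back from the printed digits for 6550 of the 9349 genes (70.1%), and limma was run on these. The genes that could not be solved had a median mean of 957 normalized counts, against 110 for the solved ones, so the most abundant transcripts have a ratio of 2 means and no test. The libraries are called a, b and c within each genotype, in descending order of scaling factor, because the values do not show which replicate number each has. The scaling factors were 1.28, 1.26 and 1.13 in WT and 1.40, 1.21 and 1.14 in the mutant, and the normalized counts of all genes summed to 7305280 in WT and 7325067 in the mutant. The libraries of a genotype differed from each other by more than the noise of sequencing the same library again. This cannot show whether they came from separate flies. The study calls the 3 libraries of a genotype biological replicates, and the p-values measure the spread between them.

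The sequences that define the Su(z)12 allele are shown because they locate the lesion that all 3 mutant libraries carry. The deletion removes 253 bases at 3L:19921167-19921419 (dm6), all of them coding and all within exon 4 of both annotated transcripts. It takes out 6.17% of the 4098 exonic bases of the gene and leaves a remainder of 1 when divided by 3. Both guides are given 5′ to 3′ with the PAM in capitals, and the 20 bases on each side of the deletion follow in the direction of transcription.
Su(z)12 guide 1: ggtgtactccgtctgctgaCGG
Su(z)12 guide 2: ggccccgtgcgacgcacctCGG
left flank: gcaataatacccgtcagcag
right flank: tcaccagtctgatggtgtgc
Guide 1 lies on the plus strand at 3L:19921408-19921426, across 1 end of the missing segment, and guide 2 on the minus strand at 3L:19921170-19921188, inside it and next to the other end.

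Neither mutated gene passed the test for a difference in level between the genotypes. Pcl was at 131, 105 and 138 normalized counts in WT libraries a, b and c and at 127, 132 and 117 in the mutant, with overlapping groups and a log2 ratio of 0.01 (adjusted p = 0.966, limma). Su(z)12 was at 231, 209 and 249 in WT and at 236, 205 and 233 in the mutant, again with overlapping groups (log2 ratio -0.03, adjusted p = 0.913, limma). Counts over a whole gene cannot show whether transcripts carry a deletion of this size, so they check neither allele. The other subunits had ratios of similar size. E(z) was at 197, 184 and 213 against 208, 207 and 194 (log2 ratio 0.04), and Caf1, the histone-binding subunit, was at 182, 178 and 199 against 188, 189 and 189 (log2 ratio 0.02). esc, escl, jing and Jarid2 had log2 ratios between -0.08 and 0.25, and none of the 7 tested PRC2 genes passed the test. The median of the 8 was 0.01, against 0.00 over all genes.

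Few transcripts differed in the double mutant, and rises slightly outnumbered falls. By the group means, 251 of 9349 genes were at least 1.5-fold higher (2.68%) and 212 at least 1.5-fold lower (2.27%). Among the 6550 genes with values per library, limma called 151 upregulated (2.31%) and 116 downregulated (1.77%) at an adjusted p under 0.05. The median log2 ratio of all 9349 genes was 0.00, and 51.3% were above 0. Of the 230 tested genes that were 1.5-fold higher, 84 were called, and of the 170 that were 1.5-fold lower, 66 were called. A further 67 upregulated and 50 downregulated genes had smaller ratios, so a large ratio and a call often did not coincide. Among the 1328 genes with a mean of at least 1000, 13 were 1.5-fold higher (0.979%) and 17 lower (1.28%).

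The precision of these values follows from depth. The median coefficient of variation between WT libraries was 9.91% for genes with a mean of 50 to 100 and 5.11% for 300 to 1000. In the mutant libraries it was 10.9% and 5.24%. The coefficient expected in WT from counting reads alone is 10.6% and 4.71%. A median of coefficients from 3 values each tends to lie below the true coefficient, so these values do not show a spread below that of counting. The median standard error of a tested log2 difference was 0.23 for means of 10 to 50, 0.11 for 50 to 300 and 0.072 for 300 to 1000. All 3 mutant libraries lay above all 3 WT libraries for 745 of 6550 genes (11.4%) and below them for 652 (9.95%). Leaving out 1 library at a time, limma called 79 to 213 genes upregulated and 53 to 177 downregulated. The counts fell by over 1.5 times without any 1 of the WT libraries (79, 83 and 80 upregulated and 57, 57 and 53 downregulated without a, b and c) and, for upregulated genes, without mutant b (93). The count of downregulated genes rose to 177 without mutant c. Of the calls, 61 of 151 and 39 of 116 remained in all 6 runs, and every called gene kept its sign in all of them. Among the genes named below, wbl, Obp99d, Hsp68, GstE5, Def, Vha100-4 and Spn55B were some of those that lost their call in at least 1 run.

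**Figure D1:**
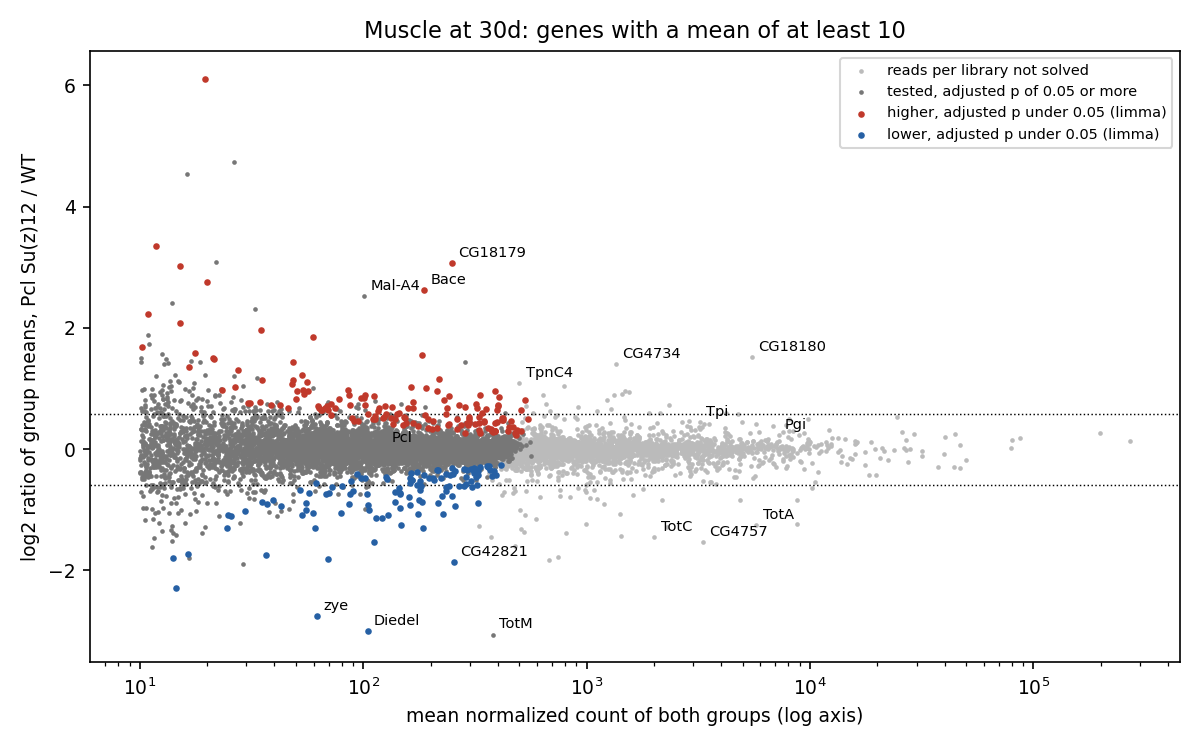
Mean normalized count of both genotypes (log axis) against the log2 ratio of the group means, mutant over WT, for 9349 genes, with limma calls in red (higher) and blue (lower), genes without values per library in light grey and dotted lines at 1.5-fold. The cloud is centred on 0 and narrows with abundance, and CG18179 (3.07) and Bace (2.63) stand above it while TotM (-3.06), Diedel (-3.0) and zye (-2.76) stand below it.

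Among genes with a mean of at least 50, the 3 largest ratios above 0 were those of CG18179, Bace and Mal-A4, and CG18179 and Bace passed the test. CG18179, a serine protease gene at 3L:9639271-9640140, was at 50.1, 52.3 and 56.4 normalized counts in WT and at 345, 509 and 481 in the mutant (log2 ratio 3.07, limma estimate 3.03 ± 0.14 (SE), adjusted p = 3.7e-07). Its groups lay far apart, and it had the lowest p-value of all 6550 genes. Its neighbour CG18180, a related gene with far more reads, had a mean of 2857 in WT and 8158 in the mutant (log2 ratio 1.51) with no values per library. Where their sequences match, the counting cannot place a read in one or the other, so the split between them is uncertain. Bace, an aspartic protease gene at 2L:8494893-8496307, was at 46.2, 55.5 and 54.6 in WT and at 387, 328 and 253 in the mutant (log2 ratio 2.63, limma estimate 2.59 ± 0.15 (SE), adjusted p = 2.5e-06). Mal-A7, a maltase that splits sugars in the gut, rose from 117, 80.9 and 81.1 to 343, 187 and 287 (log2 ratio 1.55, adjusted p = 0.0015, limma). The related maltase Mal-A4 had a log2 ratio of 2.53, but its mutant libraries were at 291, 191 and 34.2 against 31.3, 14.3 and 44.1 in WT, so the groups overlapped and it was not called (adjusted p = 0.0801, limma). Mutant c decided this, and without it the adjusted p was 4.5e-05.

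The list of gut markers did not share these rises. Of its 22 genes, 16 had a mean of at least 10 and 9 of these were above 0, with a median log2 ratio of 0.09 that turned to -0.14 at a mean of at least 50. Of 5 tested none was upregulated and 2 were downregulated, against 2.31% and 1.77% of all tested genes. Jon25Bii, a serine protease of the Jonah family, fell from 87.7, 69.0 and 103 to 46.3, 33.2 and 26.3 (log2 ratio -1.30, adjusted p = 0.0045, limma). Jon25Bi also fell (log2 ratio -0.92, adjusted p = 0.0028, limma), and Jon74E had a mean of 3255 in WT and 1341 in the mutant (log2 ratio -1.28). The abundant amylases went the other way, with Amy-p at 19932 and 28903 (log2 ratio 0.54) and Amy-d at a log2 ratio of 0.51, both without a test. The 22 gut markers summed to 91857 normalized counts in WT and 99155 in the mutant, against 177713 and 162773 for the 28 structural muscle genes, so RNA of gut cells was plentiful in both genotypes in samples labelled as muscle. The part of this RNA in the rises above was not tested. In bulk tissue, fewer cells of a type and less RNA per cell cannot be told apart.

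Among the other upregulated genes, CG3777 rose from 29.0, 26.2 and 22.9 to 75.5, 103 and 102 (log2 ratio 1.84, adjusted p = 0.00020, limma), although 25 other annotated genes overlap it and without strand their reads cannot be told apart. CG10936 rose from 32.9, 34.1 and 28.2 to 76.9, 70.5 and 75.4 (log2 ratio 1.23, adjusted p = 0.00073, limma). CG18302 rose from 143, 105 and 154 to 356, 300 and 246 (log2 ratio 1.16, adjusted p = 0.0015, limma). The noncoding RNA pncr009:3L rose as well (log2 ratio 1.11, adjusted p = 0.0028, limma). In each of these genes all mutant libraries were above all WT libraries. CG7953 had a higher ratio (log2 ratio 1.44) on overlapping values of 145, 104 and 210 in WT and 354, 192 and 701 in the mutant, and was not called (adjusted p = 0.0724, limma). lectin-37Da, a sugar-binding protein gene, did not overlap between the groups but rested mostly on mutant library a (124, against 50.6 and 63.1 in the others) and was not called either (log2 ratio 1.01, adjusted p = 0.0846, limma).

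The abundant genes with the largest positive ratios, beside CG18180, were CG4734 (mean 745 in WT and 1972 in the mutant, log2 ratio 1.40), the mucin gene Muc11A (1005 and 1961, log2 ratio 0.96), CG3819 (1057 and 2027, log2 ratio 0.94) and Cda9, a chitin deacetylase-like gene (1003 and 1878, log2 ratio 0.90). These have no test. CG15711 and CG32750 were singled out after their values were seen, because they were near 0 in WT. CG15711 was at 0, 0.793 and 0.881 normalized counts in WT and at 19.2, 41.5 and 55.2 in the mutant, and CG32750 at 1.57, 4.76 and 0 in WT and at 29.2, 14.9 and 20.2 in the mutant, with both called upregulated (adjusted p = 0.00056 and 0.0151, limma).

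The lowest ratios were those of TotM and Diedel, and 1 WT library set much of their size. TotM, a Turandot gene induced by infection and stress, was at 135, 1811 and 97.8 in WT libraries a, b and c and at 36.3, 88.8 and 120 in the mutant. Its log2 ratio of -3.06 was the lowest of all 9349 genes, and with WT b alone high and the other values overlapping it was not called (adjusted p = 0.261, limma). Diedel, a secreted immune factor, shared this pattern, at 48.5, 430 and 81.1 in WT and 20.7, 15.8 and 33.3 in the mutant. Its groups did not overlap, and it was called downregulated at the edge of the threshold (log2 ratio -3.0, adjusted p = 0.0460, limma). Without WT b the limma estimate of TotM moved from -1.97 to -0.65 and that of Diedel from -2.38 to -1.46 (adjusted p = 0.0487), and Diedel lost its call without WT c, mutant a or mutant b (adjusted p = 0.102, 0.0771 and 0.159).

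Other falls were even across the libraries. zye, at 3L:20413604-20424309 and 490 kb from Su(z)12, fell from 125, 80.9 and 119 to 13.5, 9.95 and 24.6 (log2 ratio -2.76, limma estimate -2.75 ± 0.28 (SE), adjusted p = 0.00034). CG42821 fell from 404, 435 and 361 to 146, 97.9 and 85.9 (log2 ratio -1.86, adjusted p = 0.00012, limma), and CG14191 from 93.2, 126 and 107 to 21.4, 31.5 and 40.3 (log2 ratio -1.81, adjusted p = 0.00060, limma). In all 3 every WT library was above every mutant library by a wide margin. Cpr47Ef, a cuticle protein gene (mean 1059 in WT and 298 in the mutant), CG34423 (1152 and 337) and CG4757 (4933 and 1712) had log2 ratios of -1.83, -1.77 and -1.53 with no test. For Cpr47Ef and CG34423 the mutant libraries alone could be solved, at 235, 237 and 421 and at 373, 353 and 286. CG11893 was different, at 340, 351 and 21.9 in the mutant against a WT mean of 717, so that mutant c was by far the lowest library behind its log2 ratio of -1.59. Gld, glucose dehydrogenase, had a mean of 543 in WT and 200 in the mutant (log2 ratio -1.44).

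Muscle of 3d-old WT flies was scaled together with these libraries, so its means can be set beside theirs. Its normalized counts summed to 11591935, however, against 7305280 in old WT and 7325067 in the old mutant. The 3d means given here and below therefore stand on a larger total, for which they were not corrected. The 5 genes with the lowest ratios had 3d means of 152 (TotM), 20.4 (Diedel), 32.4 (zye), 89.7 (CG42821) and 529.7 (Cpr47Ef), against means in old WT of 681, 186, 108, 400.2 and 1059. In the old mutant they were at 81.7, 23.2, 16.0, 110 and 298 in the same order. Act88F, with 5696 at 3d, 2081 in old WT and 773 in the old mutant, was instead higher at 3d than in old WT. Cyp6a8, with 178, 165 and 57.6, differed little between 3d and old WT. The difference to 3d and the difference to the mutant use the same old WT libraries, so they are not independent.

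**Figure D2:**
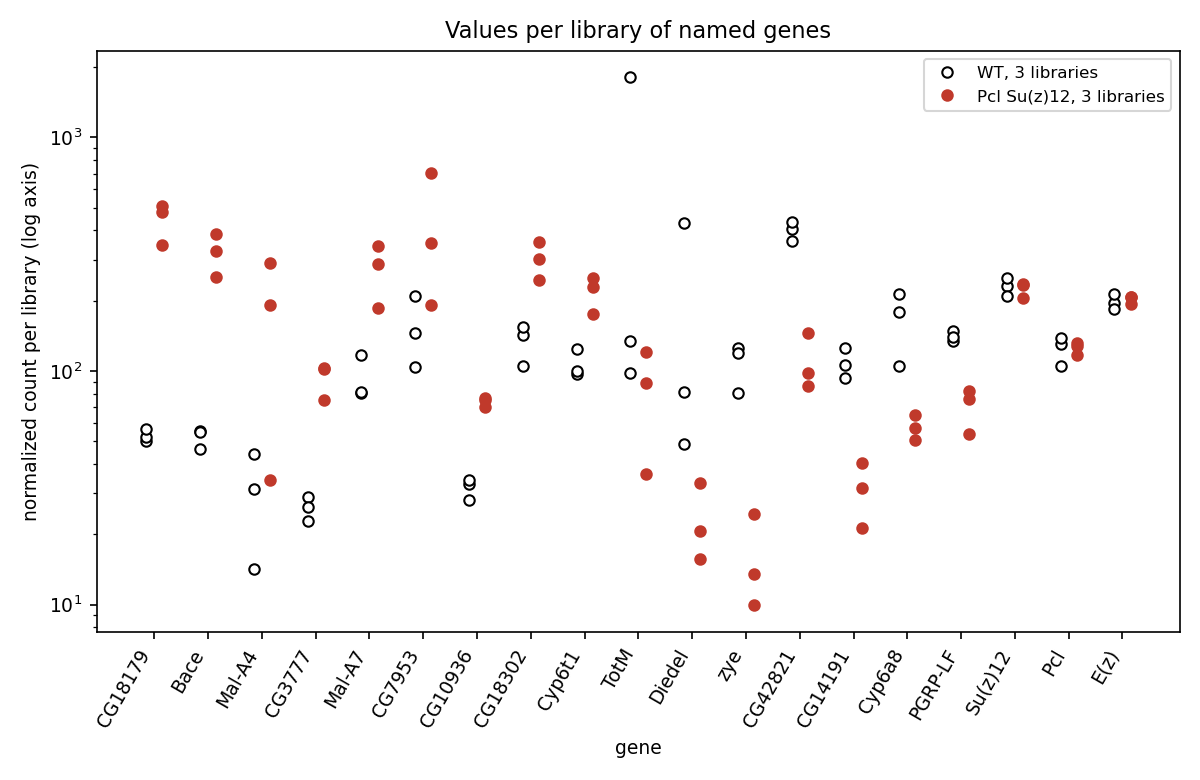
Normalized count of each library (log axis) for 19 genes, with WT libraries as open circles and mutant libraries as red dots. CG18179, Bace and CG3777 have 2 separate groups of 3, Mal-A4 and CG7953 overlap, 1 WT library alone is high for TotM and Diedel, and Su(z)12, Pcl and E(z) lie at 1 level in both genotypes.

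Most glycolysis genes had ratios slightly above 0, well short of 1.5-fold. Glycolysis turns glucose into pyruvate, and its enzymes are abundant in fly muscle. Of the 41 genes in the study's list of glycolysis and gluconeogenesis, 38 had a mean of at least 10. Their median log2 ratio was 0.17, with 29 of 38 above 0. For the 18 of them that overlap no other annotated gene, the median was 0.09. The list is a pathway annotation (KEGG). The study reported this pathway in muscle of PRC2 single mutants and in WT aging, whose old WT libraries are those used here. The choice of pathway is therefore not independent evidence of a direction. None of the 38 was 1.5-fold higher, and 1 was 1.5-fold lower. Only 10 could be tested, because most of these enzymes are too abundant to be solved, and 2 of the 10 were called upregulated and none downregulated, against 2.31% and 1.77% of all tested genes.

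Tpi, triosephosphate isomerase, had a mean of 2726 in WT and 3707 in the mutant (log2 ratio 0.44), and Pgi, phosphoglucose isomerase, 6654 and 7819 (log2 ratio 0.23). Along the pathway, Hex-C had a log2 ratio of 0.37, Pfk of 0.31, Ald of 0.24, Gapdh2 of 0.27, Pglym78 of 0.30, Eno of 0.19 and PyK of 0.26. Hex-A, the main hexokinase of muscle, was level (mean 3866 in WT and 3930 in the mutant, log2 ratio 0.02). All but Hex-A thus had positive ratios of similar size, and Pgk (log2 ratio 0.14) and Gapdh1 (log2 ratio 0.15) were in the lower part of that range. None of these has values per library, and they can be read only beside the median standard error of 0.072 found for tested genes with means of 300 to 1000. The 2 calls were outside the core path. CG10467, which resembles aldose epimerases, rose from 366, 340 and 301 to 451, 417 and 504 (log2 ratio 0.45, adjusted p = 0.0147, limma). Pmm45A, a phosphomannomutase-like gene, rose from 323, 321 and 345 to 410, 408 and 431 (log2 ratio 0.34, adjusted p = 0.0118, limma), and neither gene's groups overlapped. The adjusted p of CG10467 ran from 0.0158 to 0.0726 and that of Pmm45A from 0.0183 to 0.0600 when 1 library at a time was left out, so neither call held in all 6 runs. Pmm45A lost it without WT a or b and CG10467 without WT b or c.

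Members that do not run with the path went elsewhere. CG10924, a phosphoenolpyruvate carboxykinase of gluconeogenesis, had a mean of 1399 in WT and 592 in the mutant (log2 ratio -1.24). ImpL3, lactate dehydrogenase, was at 269, 281 and 293 in WT and at 226, 241 and 323 in the mutant, with overlapping groups (log2 ratio -0.10, adjusted p = 0.708, limma). Beside muscle of 3d-old WT, Tpi had a mean of 7250 at 3d, 2726 in old WT and 3707 in the old mutant, and Gapdh1 73340, 6073 and 6728. Both the ratio to the mutant and the ratio to young flies use the same old WT libraries, so they are not independent.

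Genes for the sugar stores that feed glycolysis were also mostly above 0. Of 11 genes of trehalose and glycogen metabolism, 10 were above 0 and the median log2 ratio was 0.24. CG9485, the glycogen debranching enzyme, had a mean of 875 in WT and 1361 in the mutant (log2 ratio 0.64). GlyP, glycogen phosphorylase, was at 4918 and 6592 (log2 ratio 0.42) and Treh, which splits trehalose, the sugar of fly blood, at 3032 and 4044 (log2 ratio 0.42). GlyS, which builds glycogen, was the one member below 0 (log2 ratio -0.04). All 5 genes of the pentose phosphate pathway were above 0, with Zw, its first enzyme, at 869 and 1139 (log2 ratio 0.39) and Pgd at a log2 ratio of 0.24. Just 1 gene of each list could be tested, Tret1-2 and CG17333, and neither was called. The pentose phosphate genes were taken from the study's table of metabolic genes, as were those of glycolysis, the citric acid cycle and oxidative phosphorylation.

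Mitochondrial pathways were closer to no difference. The 26 genes of the citric acid cycle had a median of 0.09, with ATPCL, the citrate lyase that starts lipid synthesis from citrate, highest (log2 ratio 0.38). The 109 genes of oxidative phosphorylation had a median of 0.03. Of 19 tested only Vha100-4, a subunit of the vacuolar proton pump, was called (1.77% of all tested genes were downregulated). It fell from 26.6, 23.8 and 25.6 to 9.26, 7.47 and 6.14 (log2 ratio -1.73, adjusted p = 0.0065, limma). Of the 15 genes of the mitochondrial genome, 12 were below 0 and the median was -0.19. mt:ND6, a subunit of complex I, fell from 326, 343 and 358 to 242, 218 and 215 (log2 ratio -0.61, adjusted p = 0.0012, limma), while mt:CoI, a subunit of complex IV, was at a log2 ratio of 0.14. The 79 cytoplasmic ribosomal protein genes had a median of 0.01 and the 72 mitochondrial ones of -0.01.

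**Figure D3:**
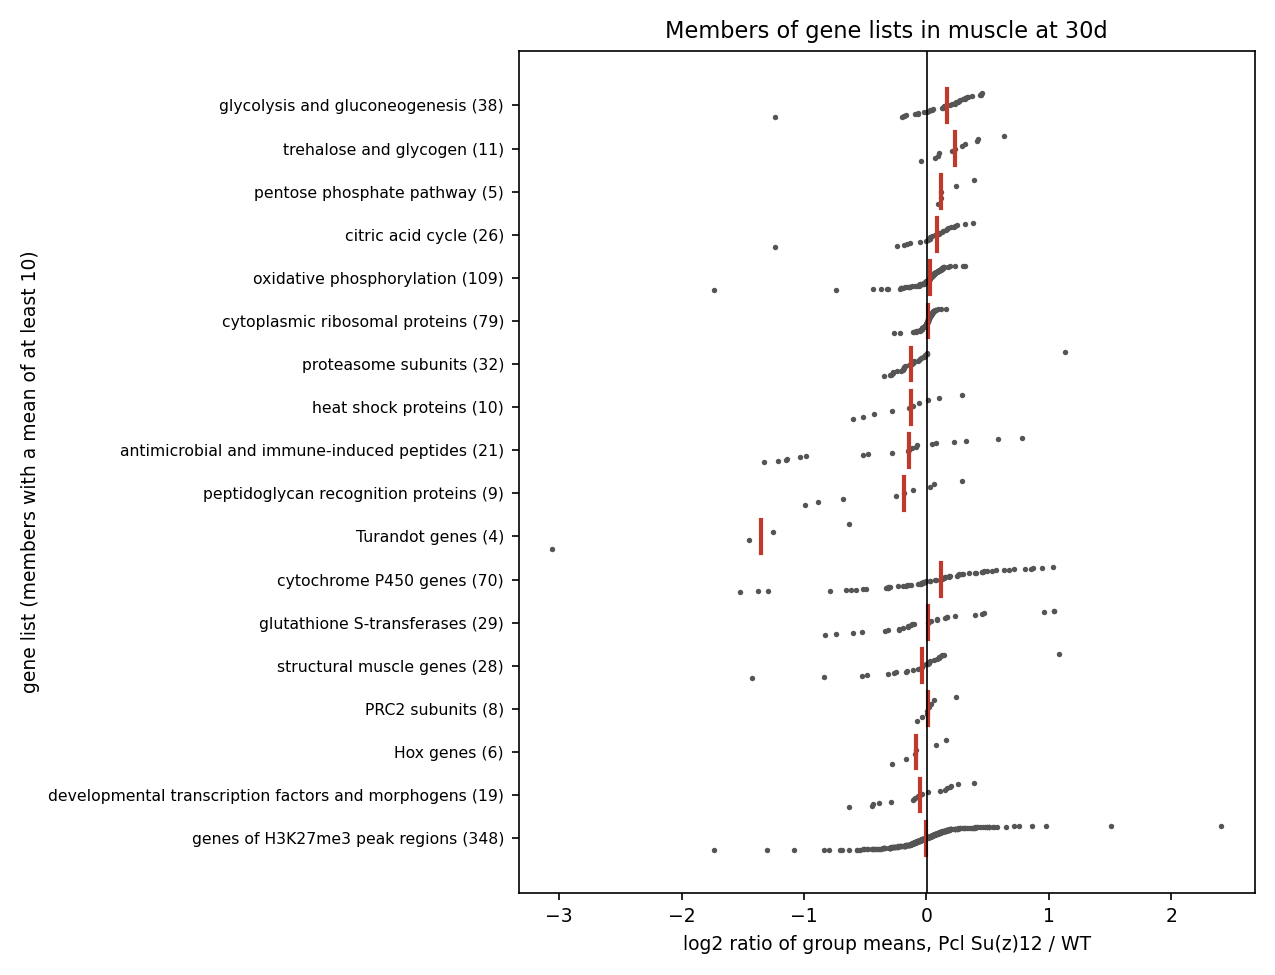
Log2 ratio of the group means for each member of 18 gene lists (dots, sorted within a list), with the list's median as a red bar, the median of all 9349 genes as a black line and the number of members in brackets. Glycolysis (0.17) and trehalose and glycogen (0.24) lie to the right, the proteasome (-0.12) and the Turandot genes (-1.35) to the left, and PRC2 subunits, Hox genes and genes of H3K27me3 peak regions on the line of all genes or close to it.

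Sarcomere genes were mostly level, with a few isoforms apart. Of 28 structural muscle genes, 16 were below 0 and the median was -0.03, with Mhc, the muscle myosin heavy chain, at 21709 in WT and 21168 in the mutant. Act88F, the actin of the indirect flight muscle, had a mean of 2081 in WT and 773 in the mutant (log2 ratio -1.43), and Act57B, another muscle actin, 11216 and 6291 (log2 ratio -0.83). TpnC4, the troponin C isoform of flight muscle, had a mean of 320 in WT, with libraries at 416, 288 and 257, and of 680 in the mutant (log2 ratio 1.09). These genes of flight muscle thus differed by over 2-fold in opposite directions, without a test. TpnC4 had a mean of 8424 in muscle of 3d-old WT, and its log2 ratio was -0.71 in Pcl muscle, 2.71 in Su(z)12 muscle and 1.24 in esc E(z) muscle, while that of Act88F was 0.14, -1.68 and -0.01. ewg, a transcription factor needed for flight muscle, rose from 351, 338 and 365 to 433, 487 and 559 (log2 ratio 0.49, adjusted p = 0.0082, limma).

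Most immune genes had ratios below 0. All 4 Turandot genes with a mean of at least 10 were over 1.5-fold lower, at a median of -1.35, and TotA (mean 8102 in WT and 3391 in the mutant) and TotC (2945 and 1079) were among the most abundant genes with a large negative ratio. Only TotM could be tested, and its low ratio rested largely on WT b, which also enters the means of TotA and TotC. These genes are related, so reads may have been counted to the wrong member. The median log2 ratio of the list was -0.78 in Pcl muscle, 0.84 in Su(z)12 muscle, -1.77 in esc E(z) muscle and -0.04 in Pcl Su(z)12 heads. Of 21 antimicrobial and immune-induced peptides, 6 were 1.5-fold lower and 1 higher, against 2.27% and 2.68% of all genes. Of 10 tested, 1 was downregulated and none upregulated (1.77% and 2.31% of all tested genes). It was Def, the defensin, which fell from 145, 189 and 136 to 99, 64.7 and 50 (log2 ratio -1.14, adjusted p = 0.0085, limma). PGRP-LF, a brake on the immune deficiency pathway, fell from 149, 134 and 140 to 81.9, 53.9 and 76.3 (log2 ratio -1.0, adjusted p = 0.0026, limma). PGRP-SD, a sensor of bacterial peptidoglycan, fell from 376, 472 and 426 to 232, 179 and 277 (log2 ratio -0.89, adjusted p = 0.0029, limma), and the other 5 tested members of this family were not called.

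The mutant libraries were uneven for these peptides. Dpt, diptericin, was at 412 in mutant a but at 24.9 and 36.8 in mutant b and c, against 112, 113 and 90.8 in WT. Dro, drosocin, was at 398, 72.2 and 102 in the mutant against 225, 313 and 256 in WT, and Mtk, metchnikowin, at 517, 73.8 and 200 against 364, 400 and 366. Mutant a was above all WT libraries and mutant b and c below them for all 3 genes, so that the groups overlapped and none was called. Without mutant a all 3 were called downregulated (limma estimates of -1.76, -1.60 and -1.62, adjusted p = 0.00033, 0.00022 and 0.0050). Summed over the 16 solved peptide genes, mutant a stood at 2152 and mutant b and c at 391.6 and 619, with WT at 1277 to 1478. The part of this difference between libraries in the values of other immune genes was not tested.

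Genes for stress and detoxification split into both directions. Hsp68, a stress-inducible chaperone, fell from 344, 274 and 347 to 239, 178 and 219 (log2 ratio -0.60, adjusted p = 0.0151, limma), and 7 of 10 heat shock genes were below 0, with a median of -0.13. The proteasome, which degrades tagged proteins, had 28 of 32 subunits below 0 and a median of -0.12, and its lowest members were Prosbeta1 (log2 ratio -0.34) and Prosbeta3 (log2 ratio -0.29). The highest was Rpt3R, at 7.83, 6.34 and 11.5 in WT and 23.5, 13.3 and 19.3 in the mutant, which was not called (adjusted p = 0.120, limma). Just 2 of the 32 subunits had values per library, so the small shift of the list has no test.

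Of 70 cytochrome P450 genes, 8 were 1.5-fold higher and 6 lower (2.68% and 2.27% of all genes), and of 45 tested 7 were upregulated and 3 downregulated (2.31% and 1.77% of all tested genes). Cyp6t1 rose from 124, 96.7 and 99.6 to 251, 230 and 175 (log2 ratio 1.03, adjusted p = 0.0018, limma) and Cyp12a5 from 298, 300 and 314 to 514, 513 and 468 (log2 ratio 0.71, adjusted p = 0.00020, limma). Cyp6a8 fell from 178, 105 and 213 to 50.6, 57.2 and 64.9 (log2 ratio -1.52, adjusted p = 0.0026, limma). Glutathione S-transferases, which conjugate toxins to glutathione, had 2 upregulated and 2 downregulated genes of 20 tested, beside the same 2.31% and 1.77%. All 4 are GstE genes that lie 261 to 268 kb from Pcl. GstE8 rose from 150, 149 and 138 to 323, 254 and 275 (log2 ratio 0.96, adjusted p = 0.00034, limma), and GstE5 fell from 98.6, 129 and 99.6 to 76.9, 73.8 and 45.6 (log2 ratio -0.74, adjusted p = 0.0479, limma). GstE1 had a mean of 518 in WT and 1066 in the mutant (log2 ratio 1.04). The GstE genes lie side by side and resemble each other, so reads of 1 may have been counted to another.

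Genes in H3K27me3 peak regions, the chromatin that PRC2 marks, had ratios centred on 0. Of 922 gene names in the study's peak regions that matched the table, 348 had a mean of at least 10, so most were too low to assess. Their median log2 ratio was -0.01. Of the 348, 7 were 1.5-fold higher and 8 lower, and of 275 tested 6 were upregulated and 9 downregulated (2.31% and 1.77% over all genes). The 6 upregulated genes include wbl, at 10.2, 15.1 and 7.93 in WT and 26.3, 40.6 and 27.2 in the mutant (log2 ratio 1.51, adjusted p = 0.0164, limma), and Obp99d, an odorant binding protein gene (log2 ratio 0.65, adjusted p = 0.0243, limma). Besides Vha100-4, the 9 downregulated genes include disco-r, a zinc finger transcription factor gene, which fell from 380, 352 and 353 to 287, 304 and 265 (log2 ratio -0.34, adjusted p = 0.0243, limma). Of the 8 Hox genes 6 had a mean of at least 10, and their log2 ratios ran from -0.28 to 0.16 with no call. None of the 17 tested genes among the developmental transcription factors and morphogens was called either, and en, the segment polarity gene engrailed, had the lowest ratio on few reads (15.7, 13.5 and 17.6 in WT and 7.83, 9.13 and 13.2 in the mutant, adjusted p = 0.364, limma).

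The partner complex PRC1, which binds the mark, was level too. Its list of 14 genes, with the subunits of PhoRC and the demethylase Utx, had a median of -0.01, ran from -0.27 (Psc) to 0.20 (l(3)73Ah) and held no call among 13 tested genes. Of the 61 genes with known effects on lifespan, a list taken from the study, 23 were tested. PGRP-LF and Hsp68 were called, both downregulated, beside 1.77% of all tested genes. Prx2540-2, a peroxiredoxin that removes peroxides, fell from 197, 174 and 240 to 119, 117 and 118 (log2 ratio -0.79, adjusted p = 0.0028, limma). It was the one call among 5 tested antioxidant enzymes (1.77% of all tested genes were downregulated). Among 11 tested cuticle protein genes 3 were upregulated (2.31% of all tested genes), of which Cpr76Bd rose from 54.0, 53.9 and 59.9 to 112, 103 and 85.1 (log2 ratio 0.84, adjusted p = 0.0045, limma). Of the 64 tested mitochondrial ribosomal protein genes only mRpL39 was called upregulated, beside 2.31% of all tested genes, and none downregulated. It was at 68.1, 71.3 and 73.2 in WT and 139.6, 103.7 and 153 in the mutant (log2 ratio 0.90, adjusted p = 0.0045, limma). The 8 clock genes had a median of -0.18 and the 8 metal-binding genes of -0.26, without a call among the 3 and 4 tested.

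Some libraries differed from their group in sets of genes that mark other tissues. The genes named here were singled out after their values were seen. CG17571, a serine protease gene, was at 0, 0 and 114 in WT and at 111, 0 and 3.51 in the mutant, so WT c and mutant a alone were high, and the same held for Jon25Biii (3.91, 4.76 and 84.6 in WT and 143, 1.66 and 0.877 in the mutant). A gene at over 3 times the next library of its own genotype occurred 28 times in mutant a, 14 times in WT c, 7 times in WT b and mutant c, 2 times in WT a and 1 time in mutant b. Of these only Diedel was called. CG8329, at 145 in mutant a and 4.15 and 3.51 in the others against 0.783 to 3.17 in WT, gave a log2 ratio of 4.74 without passing the test. The photoreceptor markers had all 7 measured members above 0 at a median of 0.50, with mutant c alone high. ninaE, the main opsin, was at 265 in mutant c and at 58.4 to 151 in the other 5 libraries, and the 12 solved markers summed to 612 in mutant c and 175 to 330 elsewhere. Markers of the male accessory gland summed to 39.1 or less in every library and those of testis to 81.2 or less, and none of either list had a mean of at least 10.

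**Figure D4:**
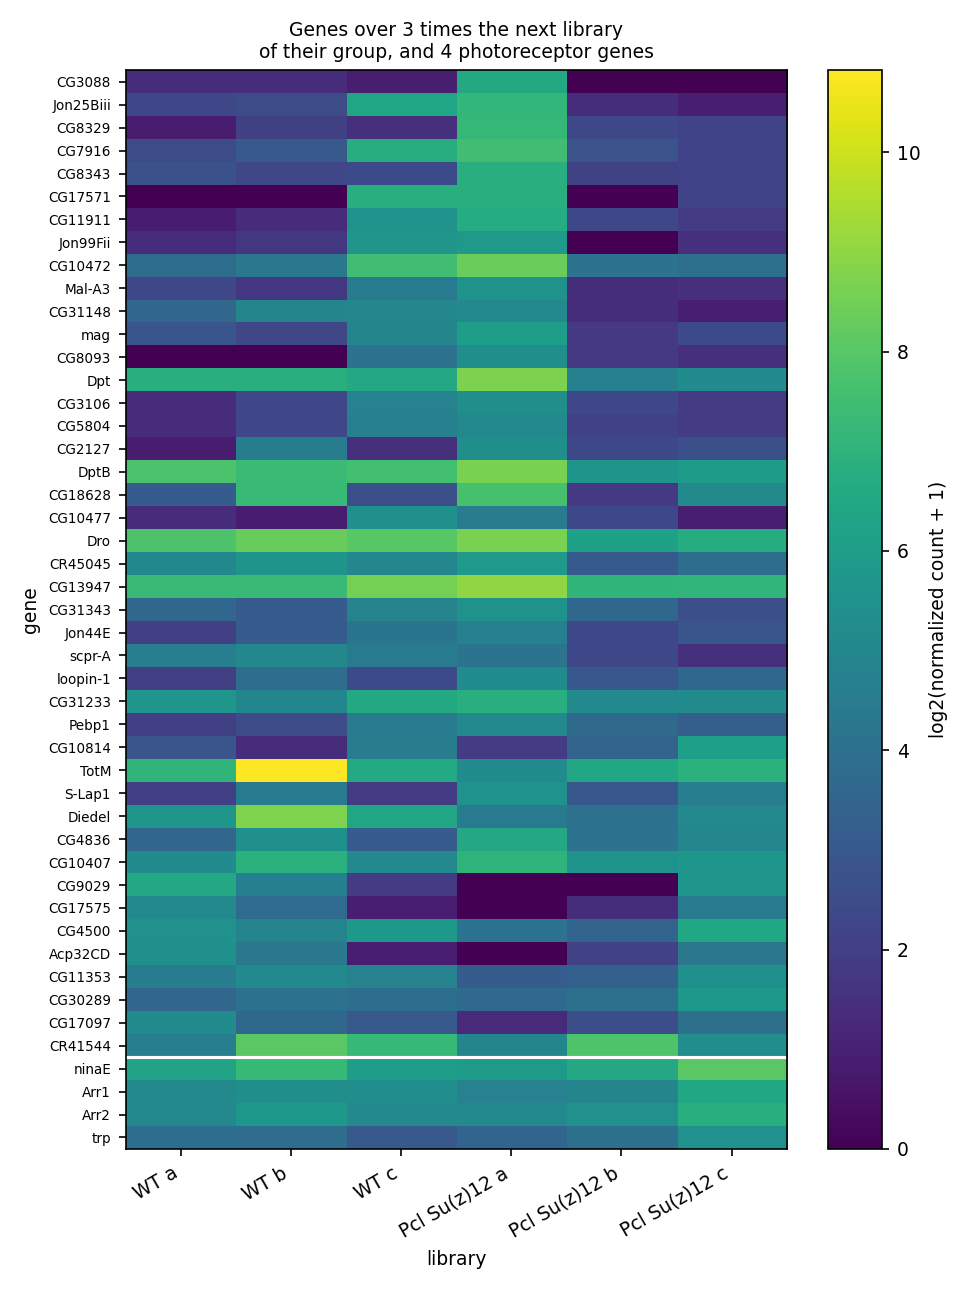
Log2(normalized count + 1) in each of the 6 libraries (columns) for genes at over 3 times the next library of their genotype and, under the white line, 4 photoreceptor genes. Serine protease genes such as CG17571 and Jon25Biii are bright in WT c and mutant a together, Dpt, DptB and Dro in mutant a, TotM and Diedel in WT b, and ninaE in mutant c.

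Hemocyte markers, which stand for blood cells, all had ratios below 0. The 7 measured members had a median of -0.23, and PPO1, a prophenoloxidase of crystal cells, had a mean of 783 in WT and 577 in the mutant (log2 ratio -0.44). eater, a phagocytosis receptor, was at 113, 124 and 117 in WT and at 95.4, 102 and 93.8 in the mutant, without overlap but short of the threshold (log2 ratio -0.28, adjusted p = 0.177, limma). The neuron markers had a median of -0.05. The fat body marker apolpp, the lipoprotein of fly blood, was abundant in both genotypes. The part of these marker levels in the falls of immune genes was not tested.

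Genes around the mutated loci were described by their distance from them. Within 100 kb of Su(z)12, none of 28 genes was 1.5-fold higher or lower and none of the 19 tested was called. Within 100 kb of Pcl, 1 of 26 genes was 1.5-fold lower. This was Spn55B, a serpin that inhibits proteases, which lies 7.22 kb from Pcl and fell from 241, 342 and 271 to 171, 185 and 198 (log2 ratio -0.63, adjusted p = 0.0134, limma). CG5773, at 91.7 kb, rose from 353, 314 and 366 to 397, 483 and 593 (log2 ratio 0.51, adjusted p = 0.0391, limma). Hsf, the heat shock transcription factor, and pAbp, both within 1 kb of Pcl, had log2 ratios of -0.08 and 0.07.

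Within 500 kb of Su(z)12, 5 of 79 tested genes were upregulated and 2 downregulated, and within 500 kb of Pcl 4 and 4 of 79, beside 2.31% and 1.77% of all tested genes. Around Su(z)12 the upregulated genes were CG7017 (287 kb away, log2 ratio 3.02), Cpr76Bd (380 kb), CG9451 (417 kb), pncr009:3L (430 kb) and CR32207 (439.5 kb), and the downregulated ones CG5498 (459 kb) and zye (490 kb). Around Pcl, besides Spn55B and CG5773, they were CG18107, the GstE genes E3, E5, E7 and E8 and CG10936 (496 kb). Several of the leading changes described above, zye, CG10936, pncr009:3L, Cpr76Bd and GstE8, thus lie in these windows. The bin of 500 kb on 2R that starts at 18000 kb held 7 calls among 43 tested genes, the most of any bin together with the first bin of the X. Every mutant library carries both alleles on the chromosomes that hold these neighbours, so an effect of an allele and one of the segment around it cannot be told apart.

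A run of neighbouring genes at the tip of the X was higher in the mutant, and it was singled out after its values were seen. Of the 12 genes with a mean of at least 10 that start before 300 kb, all were above 0, the median log2 ratio was 0.79 and 7 of 11 tested were upregulated. Over all genes 51.3% were above 0, and 2.31% of those tested were upregulated. The run was not even. CG3038 had a log2 ratio of 0.15 and was not called (adjusted p = 0.801, limma). CR40469 was at 25.6, 25.7 and 0 in the mutant and was not called either (adjusted p = 0.790, limma). The 7 upregulated genes include G9a, a histone H3 lysine 9 methyltransferase, which rose from 254, 254 and 235 to 363, 381 and 449 (log2 ratio 0.68, adjusted p = 0.0012, limma). cin, an enzyme of molybdenum cofactor synthesis, rose from 244, 212 and 257 to 363, 387 and 446 (log2 ratio 0.75, adjusted p = 0.0013, limma), and CG3777 and ewg belong to the same run. Mutant c was the highest library for G9a, cin and ewg, yet all 3 mutant libraries were above all WT libraries in each. The next 9 genes, which start from 300 to 500 kb, had a median of 0.04 and no call. CG13375, the last gene of the run to start (log2 ratio 0.84), ends at position 294962. Cyp4g1, the first of the next 9 (log2 ratio 0.15, without a test), starts at 467057. None of these genes starts in between, so the place where the ratios change cannot be given more closely.

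The same X genes had positive medians in other PRC2 comparisons of the study, each set against WT controls other than the ones used here. The heads come from the same double mutant, and Pcl and Su(z)12 are the genes mutated in it. Only esc E(z) muscle has other genes mutated. The median log2 ratio was 0.56 in Pcl muscle, 0.85 in Su(z)12 muscle, 0.35 in esc E(z) muscle and 0.89 in Pcl Su(z)12 heads. The Pcl and Su(z)12 muscle share 1 set of controls with each other. In all 4 the median of the genes that start from 300 to 500 kb lay between -0.11 and -0.05. Genotypes along the X were not analysed here.

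**Figure D5:**
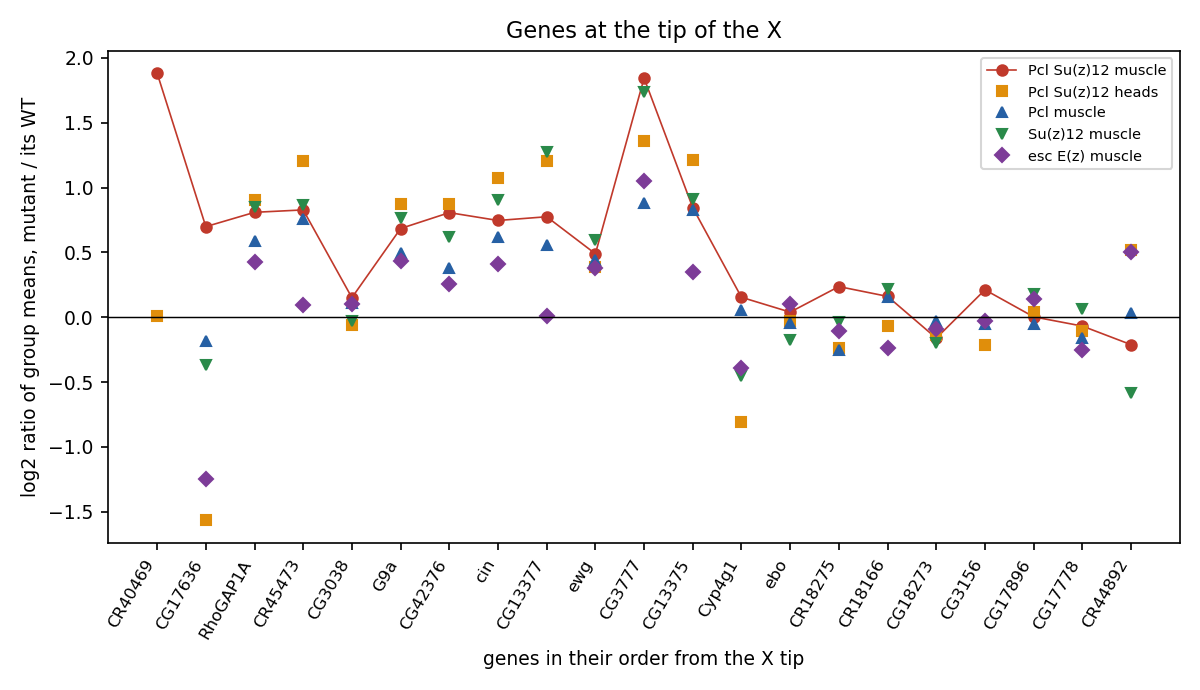
Log2 ratio of the group means, mutant over its own WT, for 21 genes in their order from the tip of the X, in Pcl Su(z)12 muscle (red, joined by a line) and 4 other comparisons. From RhoGAP1A to CG13375 most values lie above 0 in every comparison, and from Cyp4g1 on they scatter around 0.

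Part of the calls recurred in other PRC2 comparisons of the study, which have controls of their own. Among them are heads of the same double mutant and muscle with a mutation in Pcl or Su(z)12 alone. In these comparisons the same steps called 149 genes of 7409 upregulated in Pcl Su(z)12 heads (2.01%) and 119 downregulated (1.61%), 237 and 237 of 7711 in Su(z)12 muscle (3.07% each), 120 and 94 of 7703 in Pcl muscle (1.56% and 1.22%) and 123 and 172 of 7051 in esc E(z) muscle (1.74% and 2.44%). Of 127 upregulated genes tested in both, 52 were also upregulated in heads, which is 40.9% of these and 49.5% of the 105 there. Of 95 downregulated genes, 28 were also downregulated in heads (29.5% and 32.2%), and 1 gene was called in the opposite direction. In Su(z)12 muscle it was 56 of 142 upregulated genes (39.4%, and 32.6% of those there) and 27 of 111 downregulated (24.3% and 19.4%), with 2 and 2 opposite. In Pcl muscle it was 17 of 138 and 12 of 111 with 0 opposite, and in esc E(z) muscle 23 of 141 and 17 of 113 with 6 and 3 opposite. The tables differ in depth and in how many genes could be solved, so the shares do not rank the mutants.

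In all 4 other comparisons, 3 upregulated genes and 1 downregulated gene were called in the same direction, and 60 and 59 in none. A gene not tested in a comparison counts here as not called, so these counts can understate recurrence. In heads, 127 of the 151 upregulated and 95 of the 116 downregulated genes were tested. G9a and ewg, for example, were upregulated in Pcl, Su(z)12 and esc E(z) muscle but not tested in heads. cin and CG5773 are 2 of the 3 upregulated genes called in all 4. The third is Cht5, a chitinase, which rose from 135, 110 and 123 to 172, 211 and 251 in the double mutant muscle (log2 ratio 0.78, adjusted p = 0.0069, limma) and had log2 ratios of 0.57, 0.82, 0.52 and 0.75 in Pcl muscle, Su(z)12 muscle, esc E(z) muscle and Pcl Su(z)12 heads. The downregulated gene is CG33296, at 251, 313 and 301 in WT and at 175, 195 and 166 in the mutant (log2 ratio -0.69, adjusted p = 0.0026, limma), with log2 ratios of -0.44, -0.59, -1.01 and -1.01 elsewhere. These 4 genes were singled out after their values were seen. The leading genes of the double mutant muscle were not among them. CG18179 had log2 ratios of -0.11 in Pcl muscle, 1.64 in Su(z)12 muscle and -0.62 in esc E(z) muscle, Bace of 0.78, 1.96 and 0.05, and zye of -1.46, -2.07 and -1.02. In heads of the double mutant CG18179 and Bace had means under 10 in both genotypes. The differences between these tables were not tested, since each was scaled separately.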

How the data were processed

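Per the labels, muscle was dissected from male flies and polyA mRNA libraries were sequenced without keeping strand. For alignment the authors used STAR and the dm6 build, for gene counts HTSeq (intersection-strict mode, no strand), and for scaling DESeq, with 1 size factor per library. Overlapping genes and near-identical paralogs are therefore uncertain. The deposited signal values are means of normalized counts per genotype. The table also holds the authors' own fold changes and p-values, which were not used.

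The labels of 1 control set name this table in their descriptions although their titles name another comparison. The WT column was identical to the 30d column of the WT aging table for all 17023 genes, which placed it with the titles. The log2 ratio of 2 group means was the main value, for genes with a mean of at least 10, and a ratio of at least 1.5-fold was counted without a test. Size factors were found from the steps of low values, and the reads of single libraries were solved where the 10 printed digits allowed 1 set of whole reads, up to a mean of 1000. On these, limma 3.58.1 (R 4.3.3) with a trend was run on log2(normalized count + 1), which understates changes of low genes, with Benjamini-Hochberg adjustment over 6550 genes and a threshold of 0.05. The tables of the other comparisons were treated the same way and tested apart. Python 3.11.15 with numpy 2.4.6, pandas 2.3.3, numba 0.67.0 and matplotlib 3.10.9 was used.

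Simulated libraries, 3 against 3, of 9342 genes served to test this procedure. Of these, 6564 were solved, all with the right reads. Limma called 27 of 46 genes changed 1.5-fold (58.7%), 42 of 43 changed 2-fold, 39 of 39 changed 3-fold and 6 of 6436 unchanged genes. Every simulated gene had the same small extra spread between libraries, and no library stood apart. In the real mutant libraries the 99th percentile of the coefficient of variation was 123% for means of 10 to 50. The simulated shares of calls therefore do not carry over to the real data.

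The members and lists were chosen with earlier results of these data known. Named genes are the PRC2 subunits, Tpi and Pgi, the 15 largest rises and 15 largest falls at a mean of at least 50, the 5 and 5 at a mean of at least 1000, up to 4 extreme members of each of 36 lists and genes past 1.5-fold within 100 kb of the mutated genes. Other genes named were chosen after their values were seen. Alternatives were other pseudocounts, scalings, filters and folds, limma without a trend, and leaving out each library. Guide and flank sequences come from the study's supplementary list of alleles, and their positions and PAMs from the RefSeq genome of the same build (dm6).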

Additional observations from a re-analysis of the deposited data

Results flagged for a closer look

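Among the named genes with values per library in both muscle and heads of the double mutant, 2 had ratios of opposite sign, with every mutant library above every WT library in one tissue and below in the other. Syx1A, a syntaxin of the synaptic vesicle release machinery, had a log2 ratio of -0.16 in muscle and 0.24 in heads, and mRpL34, a mitochondrial ribosomal protein gene, of 0.53 in muscle and -0.66 in heads. Neither gene was called in muscle (adjusted p = 0.309 and 0.323, limma). In muscle, groups without overlap occurred for 11.4% (higher) and 9.95% (lower) of all tested genes. The difference between the tissues was not tested.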

How the results depend on the processing

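Of the counts of genes by the ratio of means (251 higher and 212 lower), a 2-fold limit gave 63 and 71, a mean of at least 50 gave 99 and 106, no filter on the mean 1408 and 892 and a pseudocount of 10 gave 141 and 137. Counted over tested genes alone, an alternative added after seeing the data, there were 230 and 170, and 206 to 272 and 174 to 224 without 1 library at a time. For limma (151 and 116), an unadjusted p under 0.05 gave 561 and 518, and a fit without a trend 65 and 34. Leaving out 1 library at a time gave 79 to 213 and 53 to 177. Centring gave 245 and 221 and equal sums 247 and 218. With members that overlap no other annotated gene, the list medians moved to 0.16 for Hox genes (1 gene left), -0.18 for lipid storage and transport, 0.14 for fat body, -0.03 for gut and 0.68 for photoreceptors, and with a mean of at least 50 to -0.14 for gut. None of the 160 named genes changed direction with a pseudocount of 1 or centring. No paired analysis was possible because the columns carry no replicate numbers. The 2799 genes too abundant to be solved, which hold most glycolysis and sarcomere genes, have no test, and with 3 libraries a 1.5-fold change was often missed in the simulation.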
